A study of Homo sapiens with 4 samples.

Results

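The 4 enzymes that make amino acids or feed their synthesis, ASNS, PHGDH, PSAT1 and PCK2, were compared between cells with and without knockdown of the acetyltransferase PCAF. They were taken by symbol from a table that the authors deposited with their higher and lower genes, where 759 of the arrays' 33297 probe sets have a name. Each of the 4 genes has 1 probe set there, all among the genes listed as up. Because that table was selected on the same arrays, the difference between the groups chose these genes, and it is given below as a description with no test.

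The cells were HCT116, an established human colorectal carcinoma line, growing asynchronously. In the SH Ctrl group (2 arrays, labelled wild-type) the cells received a control shRNA, and in the SH PCAF group (2 arrays, labelled PCAF knock-down) an shRNA against PCAF, a lysine acetyltransferase now named KAT2B. An shRNA is a short hairpin RNA that lowers the messenger RNA of its target, and both groups were transfected. Total RNA was hybridised to single-colour Affymetrix arrays, and each value below is the log2 signal of a probe set, in which a difference of 1 is a doubling. The labels name no hairpin sequence or time after transfection, and do not say whether the replicates were separate cultures, so the spread between replicates may be technical.

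Serine is made from an intermediate of glycolysis. PHGDH oxidises phosphoglycerate, PSAT1 transfers an amino group to the product from glutamate and releases alpha-ketoglutarate, and the phosphatase PSPH completes serine. ASNS makes asparagine from aspartate with the amide nitrogen of glutamine. PCK2 is the mitochondrial phosphoenolpyruvate carboxykinase, which turns oxaloacetate into phosphoenolpyruvate (PEP), the glycolytic intermediate upstream of pyruvate. All of them are known targets of ATF4, the transcription factor that is translated more when amino acids run short, and ATF4 acts with C/EBP partners at a composite DNA element.

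The promoters of the 4 genes are printed because such elements are short enough to be searched for. That all 4 genes were higher follows from how they were chosen and is no sign of a shared element. RefSeq's promoter windows run from 250 bases before to 50 bases after an annotated start (assembly GRCh38.p14). All 4 symbols matched, and ASNS has a second window that overlaps the first. The sequences are in lower case, 5′ to 3′ on the gene's strand, with matches to the searched motifs in capitals. The starts of the PHGDH and PSAT1 windows are those of the gene spans given below. Those of ASNS and PCK2 lie inside the gene spans, by 56033 bases for the first ASNS window and 140 bases for PCK2. The ASNS window is chr7:97872359-97872658 on the minus strand, the PHGDH window chr1:119711684-119711983 on the plus strand, the PSAT1 window chr9:78296875-78297174 on the plus strand and the PCK2 window chr14:24094061-24094360 on the plus strand.
ASNS: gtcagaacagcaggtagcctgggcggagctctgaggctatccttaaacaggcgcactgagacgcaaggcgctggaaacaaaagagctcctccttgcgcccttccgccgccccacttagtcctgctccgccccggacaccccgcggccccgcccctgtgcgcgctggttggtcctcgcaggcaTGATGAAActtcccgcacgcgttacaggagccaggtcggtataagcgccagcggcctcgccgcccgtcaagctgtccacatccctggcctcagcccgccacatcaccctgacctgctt
PHGDH: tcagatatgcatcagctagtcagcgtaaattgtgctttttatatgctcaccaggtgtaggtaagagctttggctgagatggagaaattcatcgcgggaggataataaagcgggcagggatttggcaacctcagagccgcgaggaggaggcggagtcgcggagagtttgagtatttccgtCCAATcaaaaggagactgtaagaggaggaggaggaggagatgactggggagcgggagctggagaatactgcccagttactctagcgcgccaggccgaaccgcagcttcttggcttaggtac
PSAT1: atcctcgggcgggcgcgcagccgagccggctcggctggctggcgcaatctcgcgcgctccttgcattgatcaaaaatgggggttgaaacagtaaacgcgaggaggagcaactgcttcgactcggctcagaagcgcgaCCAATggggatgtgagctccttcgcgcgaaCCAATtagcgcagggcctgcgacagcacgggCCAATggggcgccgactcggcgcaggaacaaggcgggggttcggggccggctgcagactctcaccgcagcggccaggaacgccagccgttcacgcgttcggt
PCK2: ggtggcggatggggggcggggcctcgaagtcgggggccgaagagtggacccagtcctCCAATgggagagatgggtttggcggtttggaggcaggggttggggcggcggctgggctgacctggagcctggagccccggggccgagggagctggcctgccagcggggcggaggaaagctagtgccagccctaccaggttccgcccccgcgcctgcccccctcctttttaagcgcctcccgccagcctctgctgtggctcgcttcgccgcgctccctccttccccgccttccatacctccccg

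The 3 motifs searched on both strands were TGATGNAA, the core of the C/EBP-ATF composite element, TGACGTCA, the cyclic AMP response element, and CCAAT, the box bound by NF-Y. ASNS held the single match to TGATGNAA, the letters TGATGAAA on the gene's strand, whose first base lies 68 bases upstream of the start. Of 35116 RefSeq windows of this length, 3.62% hold TGATGNAA on either strand. PHGDH held 1 CCAAT, beginning 71 bases upstream of the start. PSAT1 held 3, beginning 113, 83 and 52 bases upstream. PCK2 held 1, beginning 193 bases upstream of the start that its window uses. All 5 lie on the gene's own strand, and 34.6% of all windows hold a CCAAT on either strand. No window of the 4 genes held TGACGTCA, which 1.85% of all windows hold, and the second ASNS window held none of the 3 motifs. No 2 of the matched motifs overlap. These are matches of letters, and binding was not measured.

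**Figure D1:**
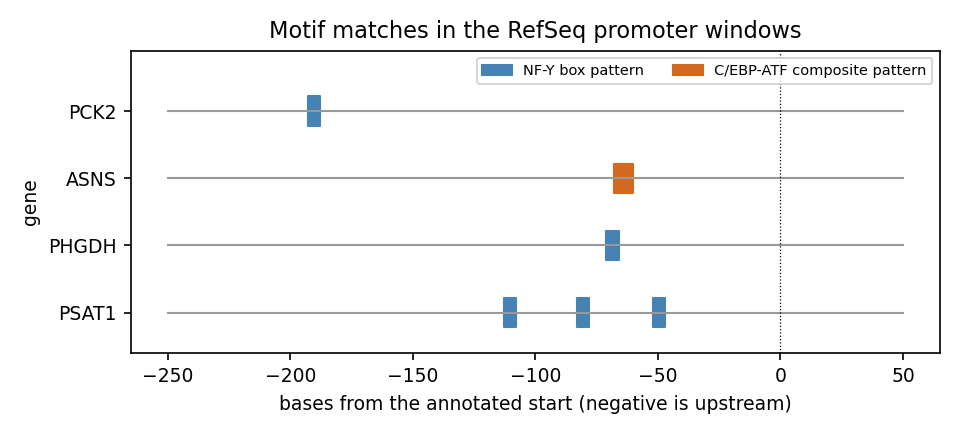
Motif matches in the first RefSeq promoter window of each gene, by distance in bases from the annotated start (dotted line), with the composite C/EBP-ATF pattern in orange and the NF-Y box pattern in blue. The composite pattern has 1 match, in ASNS beginning 68 bases upstream, and PSAT1 has 3 matches to the NF-Y box pattern.

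The windows also differ in base composition. The share of G and C is 71.7% for PCK2, 66.0% for PSAT1, 65.3% for the first ASNS window and 52.7% for PHGDH. The median over all windows is 58.7%, with quartiles of 47.0% and 68.0%. The 4 promoters thus do not share a base composition, and PHGDH lies below the median.

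Median signals were 7.08 and 7.10 in the SH Ctrl arrays and 7.03 and 7.02 in the SH PCAF arrays, and the median difference of all probe sets between the groups was -0.046 on the log2 scale. Fewer probe sets were higher than lower in SH PCAF (39.3% above 0), whereas replicate 2 exceeded replicate 1 for 52.7% in SH Ctrl and 51.4% in SH PCAF. PCAF itself, its paralogue KAT2A and CDKN1B are not named in the authors' table. PCAF is thus not among the genes named there as lower, and the knockdown has no check in the values used here. Of the markers of the labelled cell type, 2 of 13 epithelial and colorectal genes are named in the table (CDH1 and CLDN7), and their log2 signals were 10.23 or more on all 4 arrays. In SH PCAF they were 2.14-fold and 1.69-fold higher, in the same direction as the enzymes. None of the 4 endothelial markers, 2 of 8 fibroblast markers (ACTA2, higher, and TAGLN, lower in SH PCAF) and 1 of 6 leukocyte markers (CD22, higher) are named. The authors' table names only genes listed as up or down, so these counts do not show which cell types were present. The other markers were not analysed here, and the part of other cell types in the results was not tested.

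Each of the 4 enzymes had a higher signal on both SH PCAF arrays than on either SH Ctrl array, with folds between group means of 2.32 to 4.42. The same separation upward was seen for 23.1% of all 33297 probe sets, and the reverse for 36.0%. All 4 were also among the probe sets that limma's moderated test calls higher at an adjusted p below 0.05, which make up 7.05% of all probe sets, against 5.85% called lower. As the authors chose their table on this contrast, neither count says anything of these genes. At the table's edge the smallest upward difference listed was 0.70 on the log2 scale, and the 4 enzymes lie well inside it.

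ASNS, at the asparagine step, gave log2 signals of 9.50 and 9.73 in the SH Ctrl arrays and 11.71 and 11.61 in the SH PCAF arrays. The groups lie apart by 1.88 from the highest SH Ctrl to the lowest SH PCAF array, although ASNS also had the widest spread of the 4 enzymes within SH Ctrl. The group means were 9.62 ± 0.163 and 11.66 ± 0.067 (SD, n = 2 each), a difference of 2.04 ± 0.104 (moderated SE), or 4.12-fold. RefSeq places ASNS on the minus strand of chromosome 7 at 97851677 to 97928441. It ranked 31st by size of upward difference among all probe sets.

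PHGDH, the first enzyme of serine synthesis, gave log2 signals of 11.45 and 11.57 in the SH Ctrl arrays and 12.97 and 12.94 in the SH PCAF arrays. The SH PCAF arrays were both high and nearly equal, and the gap to the highest SH Ctrl array was 1.36. The means were 11.51 ± 0.089 and 12.95 ± 0.025 (SD, n = 2 each), a difference of 1.44 ± 0.078 (SE), or 2.72-fold. The gene lies on chromosome 1 at 119711934 to 119744215 (GRCh38.p14), on the plus strand.

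PSAT1, the next enzyme of that pathway, gave log2 signals of 10.72 and 10.78 in the SH Ctrl arrays and 11.93 and 12.00 in the SH PCAF arrays. It had the smallest difference of the 4 enzymes, yet the gap between the groups, 1.15, was still far wider than the spread within either. The means were 10.75 ± 0.045 and 11.97 ± 0.050 (SD, n = 2 each), which differ by 1.21 ± 0.072 (SE), or 2.32-fold. PSAT1 lies on chromosome 9 at 78297125 to 78330093 (GRCh38.p14), on the plus strand.

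The PSAT1 probe set carries 2 symbols. The authors' deposited table lists it once as PSAT1 and once as C8orf62, an older name that RefSeq gives as a synonym of PSAT1P1, annotated as a pseudogene on chromosome 8. Its signal cannot be divided between the gene and the pseudogene, so the 2.32-fold difference belongs to the probe set and not surely to PSAT1 alone. On these 2 lines the authors' deposited table gives the same value headed fold change, 2.59, but different p-values, 0.001389 for PSAT1 and 0.001591 for C8orf62, although there is a single set of signals. The probe sets of ASNS, PHGDH and PCK2 have 1 symbol each.

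PCK2, the PEP-forming enzyme, gave log2 signals of 8.52 and 8.65 in the SH Ctrl arrays and 10.68 and 10.78 in the SH PCAF arrays. It had the widest gap of the 4 enzymes, 2.03 between the highest SH Ctrl and the lowest SH PCAF array. The means were 8.59 ± 0.094 and 10.73 ± 0.067 (SD, n = 2 each), a difference of 2.14 ± 0.084 (SE), or 4.42-fold. It ranked 22nd by size of upward difference among all probe sets, where PHGDH ranked 107th and the PSAT1 probe set 200th. PCK2 lies on chromosome 14 at 24094171 to 24104125 (GRCh38.p14), on the plus strand.

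**Figure D2:**
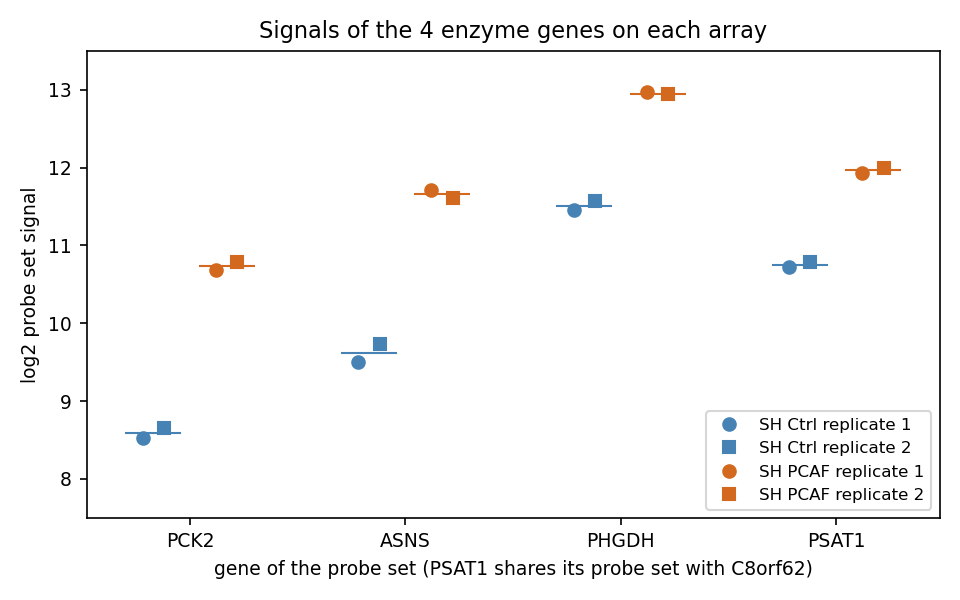
Log2 probe set signal (y axis) of each enzyme gene (x axis) on each of the 4 arrays, with circles for replicate 1, squares for replicate 2 and a line at each group mean. For every gene both SH PCAF arrays (orange) lie above both SH Ctrl arrays (blue), by a gap of 1.15 for PSAT1 to 2.03 for PCK2. Signals of different probe sets are not comparable as amounts of RNA.

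None of these signals was near the dim end of its array. The lowest, PCK2 in SH Ctrl replicate 1, was 8.52 on an array with a median of 7.08. Background was not measured in the files used here. In bulk RNA, fewer cells with a transcript and less transcript per cell cannot be told apart.

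PCK2 and ASNS had larger differences than PHGDH and PSAT1. Subtracting each SH Ctrl array from each SH PCAF array gives 4 differences per gene. They ran from 2.03 to 2.26 for PCK2, from 1.88 to 2.21 for ASNS, from 1.36 to 1.52 for PHGDH and from 1.15 to 1.28 for PSAT1. The ranges of PCK2 and ASNS overlap, and their differences, 0.10 apart, are not ordered beyond this spread. The ranges of PHGDH and PSAT1, 0.23 apart, do not overlap, and those of ASNS and PHGDH, 0.60 apart, do not either. As folds, the single-array comparisons ran from 4.08 to 4.78 for PCK2, 3.68 to 4.61 for ASNS, 2.57 to 2.88 for PHGDH and 2.22 to 2.43 for PSAT1. In these arrays the order of the genes on this scale was PCK2 and ASNS, then PHGDH, then PSAT1. The 4 differences of a gene reuse the same 2 arrays per group, so their range is not a measure of precision. The order was not tested. Different probe sets can compress differences to different degrees, and this was not measured.

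**Figure D3:**
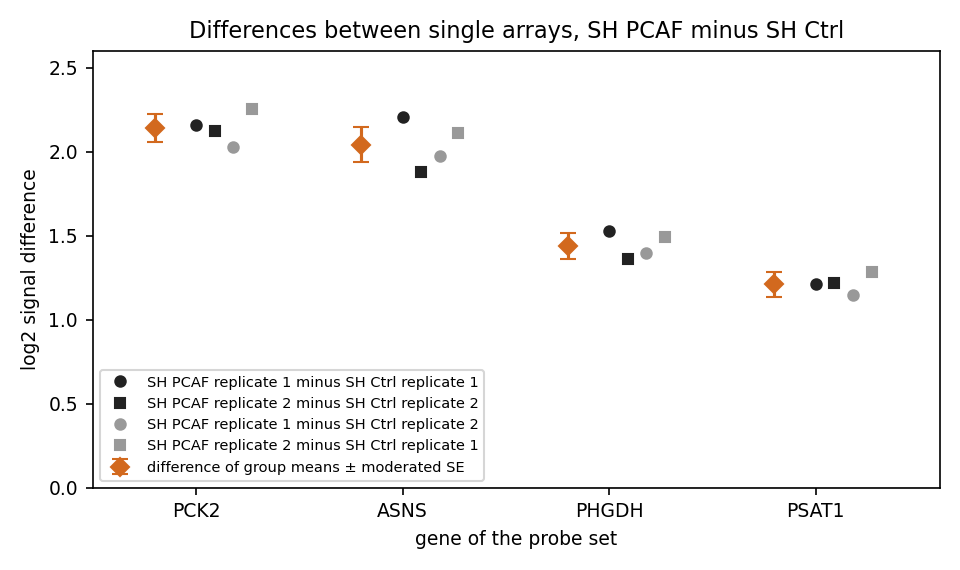
Log2 signal differences (y axis) between single SH PCAF and SH Ctrl arrays for each enzyme gene (x axis), with black symbols for arrays of the same replicate number, grey for different numbers, and orange diamonds for the difference of group means ± moderated SE. PCK2 (2.03 to 2.26) and ASNS (1.88 to 2.21) overlap, and PHGDH (1.36 to 1.52) and PSAT1 (1.15 to 1.28) lie below them.

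Between replicates the 4 enzymes differed in the same direction within SH Ctrl but not within SH PCAF. In SH Ctrl, replicate 2 exceeded replicate 1 for each of them, by 0.23 for ASNS, 0.13 for PHGDH, 0.13 for PCK2 and 0.06 for PSAT1. Over all probe sets 52.7% were higher in that replicate, with a median of 0.008. The rise is not particular to the enzymes. Among genes described below, DDIT4 (8.38 and 8.86) and SLC7A11 (10.06 and 10.43) were also higher in SH Ctrl replicate 2. GPT2 (8.32 and 8.18) and SERINC1 (9.86 and 9.63) were lower there. In SH PCAF, replicate 2 was lower for ASNS (-0.09) and PHGDH (-0.04) and higher for PCK2 (0.09) and PSAT1 (0.07). Arrays of the same number therefore gave differences of 2.21 and 1.88 for ASNS, 1.52 and 1.36 for PHGDH, 2.16 and 2.12 for PCK2, and 1.21 and 1.22 for PSAT1. The 2 pairs thus differed most for ASNS and least for PSAT1.

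Among all 33297 probe sets the 4 enzymes lie in the far upper range of differences. An upward difference of at least 1 on the log2 scale was measured for 369 probe sets, or 1.11%, and all 4 enzymes are in it. An upward difference of at least 2 was measured for 34, or 0.102%, and PCK2 and ASNS are in it. Among the 522 named probe sets that were higher, PCK2 ranked 17th, ASNS 23rd, PHGDH 77th and PSAT1 139th.

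**Figure D4:**
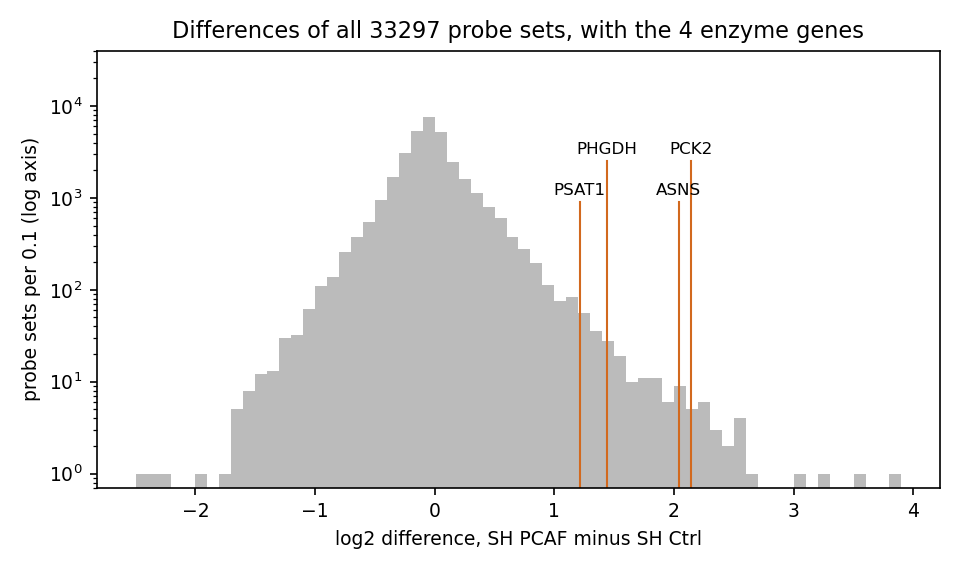
Number of probe sets (y axis, log scale) by log2 difference between SH PCAF and SH Ctrl (x axis, bins of 0.1) for all 33297 probe sets, with orange lines at the 4 enzyme genes. PSAT1 (1.21) and PHGDH (1.44) lie on the upper slope, and ASNS (2.04) and PCK2 (2.14) lie where 34 probe sets reach 2 or more.

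The authors' deposited table also has a column headed fold change, whose values are other than these folds. The authors' deposited table has 4.58 for PCK2, 4.37 for ASNS, 3.08 for PHGDH and 2.59 for PSAT1, where the log2 differences give 4.42, 4.12, 2.72 and 2.32. The value in the authors' deposited table is 2.13 to 2.14 times the log2 difference for each of these genes and exceeds the fold for all 4. The authors' deposited table gives p-values of 0.002385 for PCK2, 0.017056 for ASNS and 0.018513 for PHGDH. By the value headed fold change and by the fold the order of the 4 genes is the same, which follows from that nearly constant ratio.

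Further genes were read from 6 lists, 5 of metabolism and transport and 1 of regulators and markers of the ATF4 response, of which the table names 25 genes, the 4 enzymes included. Of these 25, 23 were higher and 2 lower in SH PCAF. The median log2 difference was 1.48 for the other 21, of which 10 are on the ATF4 list, and 1.23 for the 11 that are not, 9 higher and 2 lower. Over all 759 named probe sets, 522 were higher and 237 lower, with a median of 0.80, and the median of the 522 was 0.93. All 25 passed limma's test at an adjusted p below 0.05, as did all 759 probe sets of the table (12.9% of all probe sets did, in either direction). Since the table was selected on the same arrays, passing adds no support, and the authors' own threshold was not examined. List genes that the table does not name have no value here. The table was selected on this contrast, and the lists were chosen with earlier results of these data known. The directions and medians of list genes, here and below, therefore describe selected genes and do not compare pathways.

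Of 24 genes of serine, glycine and one-carbon metabolism the table names 3, all higher. Beside PHGDH and PSAT1 this was CTH, which makes cysteine from cystathionine, a product of serine and homocysteine. CTH gave 8.17 and 8.27 in SH Ctrl and 9.23 and 9.16 in SH PCAF, a 1.96-fold difference that was smaller than that of any of the 4 enzymes. PSPH, the last enzyme of serine synthesis, and SHMT2 and MTHFD2, which carry serine carbon into the mitochondrial folate pathway, are not named in the table. Of 11 further genes listed around serine, not all of which carry or use it, 1 is named, SERINC1, which was 1.84-fold higher.

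Of 19 genes of asparagine, aspartate, glutamate and proline metabolism, 3 are named and all were higher. Beside ASNS these were ASS1, which joins citrulline to aspartate, and GPT2, the mitochondrial alanine transaminase, which like PSAT1 takes its amino group from glutamate. ASS1 gave 10.50 and 10.55 in SH Ctrl and 11.93 and 11.71 in SH PCAF, a 2.46-fold difference. GPT2 gave 8.32 and 8.18 in SH Ctrl and 9.39 and 9.56 in SH PCAF, a 2.34-fold difference. The groups did not overlap in either, which holds for all 759 named probe sets and, upward, for 23.1% of all 33297. Both differences lay between those of PSAT1 and PHGDH.

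Of 22 genes around PEP and pyruvate, 3 are named, and they went both ways. Beside PCK2, PDK1, a kinase that restrains pyruvate dehydrogenase, was 2.42-fold higher, with 8.66 and 8.79 in SH Ctrl and 9.91 and 10.09 in SH PCAF. PGAM1 is the glycolytic mutase between phosphoglycerate, the substrate of PHGDH, and the precursor of PEP. The probe set that the authors named PGAM1 was lower. It gave 12.70 and 12.62 in SH Ctrl and 11.84 and 11.88 in SH PCAF, a difference of -0.80 ± 0.070 (SE), or 1.74-fold lower. Whether that probe set reads PGAM1 alone was not tested. The cytosolic counterpart of PCK2, PCK1, is not named in the table.

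Of 19 amino acid transporters, 5 are named, 4 higher and 1 lower. SLC1A4, a carrier of alanine, serine and cysteine, gave 7.15 and 7.40 in SH Ctrl and 9.23 and 9.36 in SH PCAF, a 4.05-fold difference close to that of ASNS. SLC7A11, the cystine and glutamate exchanger, was 5.18-fold higher, SLC43A1, a carrier of large neutral amino acids, 2.85-fold, and SLC7A1, a carrier of cationic amino acids, 1.82-fold. SLC38A5, a carrier of glutamine, asparagine and serine among others, went the other way. It gave 10.30 in both SH Ctrl arrays and 9.41 and 9.46 in SH PCAF, 1.81-fold lower. The serine carriers named thus went in different directions.

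Of 21 regulators and markers of the ATF4 and amino acid response, 10 are named and all were higher, with a median log2 difference of 1.85. CEBPG and CEBPB, C/EBP proteins that can pair with ATF4, differed by 1.57 and 1.48, which is close to PHGDH. DDIT3, TRIB3 and STC2 differed by 2.09, 1.94 and 2.06, close to ASNS and PCK2. CHAC1 (3.21) and DDIT4 (2.50) exceeded all 4 enzymes, while SESN2 (1.76) lay between ASNS and PHGDH. PPP1R15A (1.28) and JDP2 (0.97) were at the lower end. ATF4 itself is not named in the table, nor are ATF3 and ATF5.

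**Figure D5:**
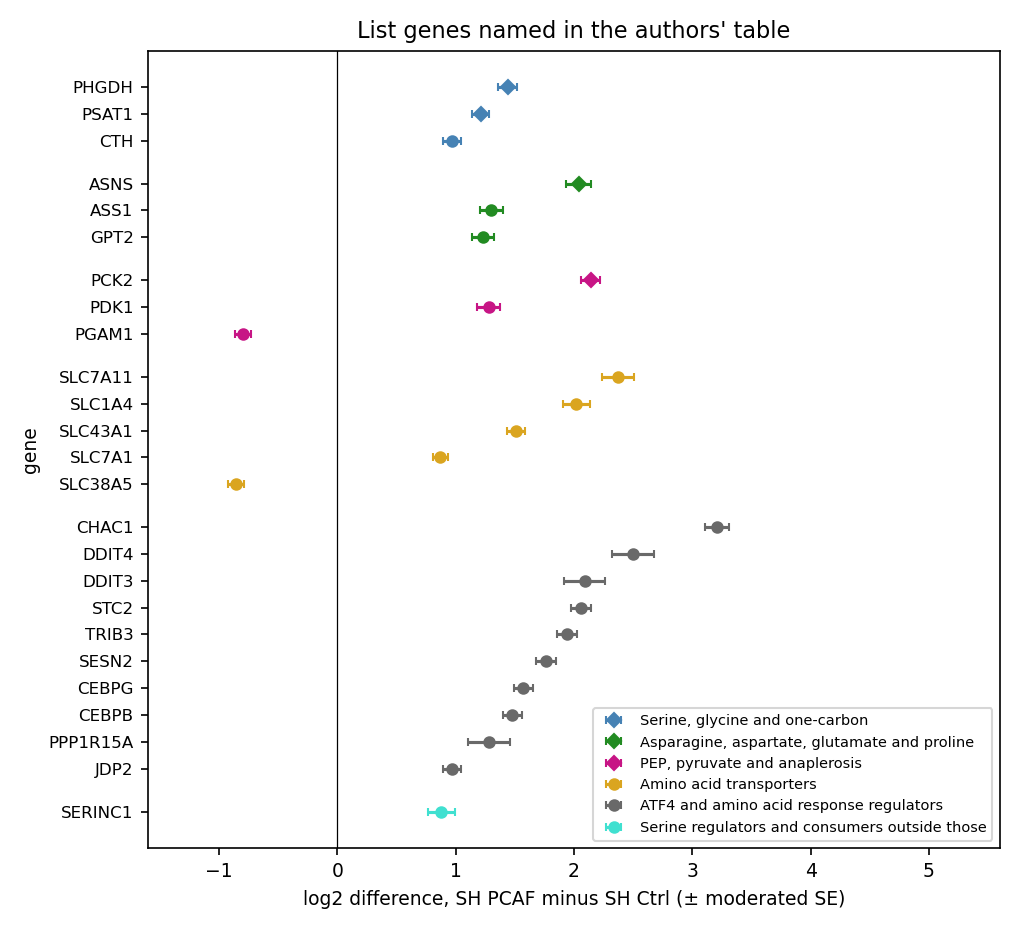
Log2 difference between SH PCAF and SH Ctrl (x axis, ± moderated SE) of the 25 list genes that the authors' table names (y axis), coloured by list, with diamonds for the 4 enzyme genes. PGAM1 (-0.80) and SLC38A5 (-0.86) lie below 0 and the other 23 above it.

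The genes with the most similar pattern to each enzyme were sought among 708 other named probe sets with 1 symbol. Each probe set's 4 array values were set relative to its own SH Ctrl mean, and likeness was the root mean square difference from the enzyme over the 4 arrays, in log2 units. ASNS and PCK2 differed from each other by 0.103 and shared their 3 nearest genes, PLAU, H6PD and SLC1A4. For ASNS these lay at 0.060, 0.072 and 0.082, and for PCK2 at 0.066, 0.107 and 0.099. PLAU encodes the secreted protease urokinase, and H6PD a dehydrogenase of the endoplasmic reticulum. PLAU gave 8.85 and 9.02 in SH Ctrl and 11.10 and 11.02 in SH PCAF, a 4.35-fold difference. The nearest to PHGDH were TNFRSF10B, a death receptor for TRAIL, at 0.041, MXD1, a MAX partner, at 0.043, and DMGDH, the mitochondrial dimethylglycine dehydrogenase, at 0.045. The nearest to the PSAT1 probe set were GRB10, an adaptor of insulin signalling, at 0.013, the fatty acid hydroxylase CYP4V2 at 0.031 and HGSNAT, a lysosomal acetyltransferase, at 0.032. PHGDH and PSAT1 lay 0.168 apart. With 4 arrays in 2 groups this measure reads mainly the size of the difference, and nothing of shared function is read from it.

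The share of all calls that were higher depended on how the arrays were centred. On the values as deposited 54.6% of limma's calls were higher, and 68.0% once the arrays' medians had been made equal. Under that centring the differences were 2.20 for PCK2, 2.10 for ASNS, 1.51 for PHGDH and 1.28 for PSAT1. No probe set of the arrays passed limma's adjusted threshold without SH Ctrl replicate 1 or without SH Ctrl replicate 2, when 6848 and 6849 had an unadjusted p below 0.05. The 4 enzymes' differences were then 1.18 to 2.08 and 1.25 to 2.21.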

How the data were processed

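The 4 arrays measured total RNA of HCT116 cells, 2 for each group, and were grouped by their titles. The deposited values are log2 signals for 33297 probe sets, and that scale was read from their range. Per the submitters' processing notes, the tools were Affymetrix Expression Console and limma, with no version or role given. How signals were summarized and normalized, and the genome build, is not given in the sources used here. The authors' deposited table gives a probe set, a symbol, a value headed fold change (treated here as a score, since it is no fold of these signals) and a p-value for 557 lines up and 295 down. It was the source of all gene names, and older symbols were updated through RefSeq (GRCh38.p14).

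Differences were fitted in R 4.3.3 with limma 3.58.1 (lmFit, then eBayes, without covariates or a filter), with Benjamini-Hochberg adjustment over all probe sets at 0.05, and the fit was tested on simulated data. Depth does not apply to arrays, whose number limits the precision. The 4 enzymes and the lists were chosen with earlier results of these data known. The genes named are the 4 enzymes, every list gene in the table and the 3 most alike named genes of each enzyme. Genes said to be absent from the table, and the markers named as present, come from the same lists. The alternatives tried were each array left out in turn, array weights, quantile normalization, centring on the median, a robust prior with an intensity trend, a replicate block, a stricter threshold and a filter on dim probe sets.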

Additional observations from a re-analysis of the deposited data

How the results depend on the processing

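Under 10 alternatives the 4 enzymes' log2 differences ran from 1.93 to 2.16 for ASNS, 1.38 to 1.51 for PHGDH, 1.18 to 1.28 for PSAT1 and 2.08 to 2.21 for PCK2. In a balanced design the replicate block, the variance prior and the filter on dim probe sets leave a difference of group means as it is, so only rescaling the arrays, weighting them or leaving one out could move these values, and as the groups lie apart in genes chosen for their difference, their direction is no sign of stability. Median centring moved PSAT1 from 1.21 to 1.28, by more than its SD within groups (pooled over both), since centring adds the same offset to every probe set, and no other value moved by as much as that gene's pooled SD. Leaving out an array gave 1.93 to 2.16 for ASNS, 1.38 to 1.51 for PHGDH, 1.18 to 1.25 for PSAT1 and 2.08 to 2.21 for PCK2.

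By limma 2346 probe sets were called higher and 1948 lower, out of 9843 with an unadjusted p below 0.05. Leaving out an array gave 0 to 1227 higher and 0 to 1142 lower. The 0 came without either SH Ctrl array, where limma's lowest adjusted p was 0.0767 and 0.0839 and 6848 and 6849 probe sets had an unadjusted p below 0.05. Each such fit has a lone array in 1 group, which is assumed to vary like the others. Without SH PCAF replicate 1 there were 1227 higher and 706 lower, and without SH PCAF replicate 2 there were 1221 and 1142. An adjusted p below 0.01 left 213 higher and 75 lower. With the replicate block, 2454 were higher and 2130 lower. The deviations of same-numbered arrays correlated at 0.254 over probe sets, and with only 2 pairs the numbers are not taken to pair the arrays. Matching symbols as the file writes them left the 25 list genes in the table at 25. The arrays' background and scan batches were not analysed here, and the number of arrays limits the precision.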
